A study of Schizosaccharomyces pombe with 2 samples.

Results

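The 10 genes described here encode the core histones of fission yeast (Schizosaccharomyces pombe) and its H2A.Z variant, out of 5113 annotated protein-coding genes. They were chosen by name: hta1 and hta2 (H2A), htb1 (H2B), hht1, hht2 and hht3 (H3), hhf1, hhf2 and hhf3 (H4) and pht1 (H2A.Z). A gene was taken as near a peak when a peak summit lay inside it or within 500 bp. By that rule 4 peaks of the 664 on chromosomes I, II and III belong to these genes.

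Condensin was mapped through its kleisin subunit Cnd2 by chromatin immunoprecipitation and sequencing (ChIP-seq). Cells of strain YUK421, which carry HA-tagged Cnd2, were grown in EMM with glutamate and held in mitosis with 5 µg/mL thiamine, and were fixed with 0.5% formaldehyde (30 min, 25 °C). There was 1 anti-HA ChIP library and 1 input library from this same strain and arrest, so the values have no replicates behind them and no test was run. The ChIP library kept 25933013 fragments and the input 54272630 after duplicate removal.

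Core histones form the octamer around which DNA is wrapped in the nucleosome. Most of their genes are switched on around S phase, when new DNA has to be packed. In fission yeast most core histone genes stand in divergent pairs that share a promoter. These promoters hold a conserved AACCCT box, which the GATA-type factor Ams2 binds. H2A.Z replaces H2A in a subset of nucleosomes, many of them at gene starts. Condensin compacts chromosomes in mitosis.

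In this list the Cnd2 peaks at hta1, htb1, hhf1 and pht1 had their summits past the 3′ ends, and each peak reached into its gene. None of the 4 shared promoters held a summit, nor did any of the 177 divergent gaps of 100 to 250 bp to which they belong. The H2B gene had by far the tallest of these peaks, at 5.38-fold, and the H2A gene beside it reached 2.09-fold. The H4 gene hhf1 and the H2A.Z gene pht1 had small peaks, at 1.37-fold and 1.30-fold. None of the 3 H3 genes had one within 500 bp, where 15.1% of all protein-coding genes did, so this count does not set them apart. Fold is the authors' value, the ChIP pileup at the summit divided by the scaled input around it (the background).

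The sequences that the results turn on are given first, since they are the places where peaks were and were not called. All were read from the RefSeq sequence of ASM294v3 by its own gene limits, and run 5′ to 3′ on the strand named. The first set lies past the 3′ ends of the 4 genes with a peak, on the strand of the histone gene. For hhf1 and pht1 it is the whole gap up to the facing gene, for htb1 the 160 bases past its end, which lie in the coding part of sec5, and for hta1 a stretch of 30 bases. The 21 capitals are centred on the base that is as far past the 3′ end as the summit.
hta1 (chrIII:1411025-1411054, minus strand): tacatGCAAAAGAATAGTACTTAATTtttt
htb1 (chrIII:1413678-1413837, plus strand): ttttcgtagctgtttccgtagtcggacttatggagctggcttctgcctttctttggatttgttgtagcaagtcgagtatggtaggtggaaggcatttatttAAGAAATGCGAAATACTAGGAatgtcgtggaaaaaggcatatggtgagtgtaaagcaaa
hhf1 (chrI:4698607-4698772, minus strand): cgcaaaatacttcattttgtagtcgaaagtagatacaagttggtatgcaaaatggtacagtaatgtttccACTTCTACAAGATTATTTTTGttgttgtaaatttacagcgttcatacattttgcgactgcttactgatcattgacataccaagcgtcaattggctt
pht1 (chrII:1502096-1502202, minus strand): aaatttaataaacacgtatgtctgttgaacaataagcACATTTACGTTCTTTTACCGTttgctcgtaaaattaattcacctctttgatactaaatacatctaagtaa

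The second set is the promoters, none of which held a summit. For 3 of the pairs it is the gap between the annotated gene starts. For hht3 and hhf3 it is the 100 bases of the gap next to hht3, because hhf3 has no annotated 5′ untranslated region, and for hta2 it is the 100 bases before the gene. Capitals mark the doubled AACCCT box, and each sequence is given on the strand that reads it as AACCCTAACCCT.
hta1 and htb1 (chrIII:1412182-1412358, minus strand): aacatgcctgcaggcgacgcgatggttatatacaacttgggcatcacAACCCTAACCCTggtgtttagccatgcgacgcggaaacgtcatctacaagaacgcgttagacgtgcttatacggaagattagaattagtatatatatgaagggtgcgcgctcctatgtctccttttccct
hhf1 and hht1 (chrI:4699600-4699731, plus strand): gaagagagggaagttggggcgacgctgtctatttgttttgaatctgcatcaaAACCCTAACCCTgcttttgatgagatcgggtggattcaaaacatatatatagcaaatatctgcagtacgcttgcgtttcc
hhf2 and hht2 (chrII:1364985-1365118, minus strand): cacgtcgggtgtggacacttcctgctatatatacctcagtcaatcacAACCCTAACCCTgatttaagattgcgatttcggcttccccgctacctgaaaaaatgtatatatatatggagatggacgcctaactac
hht3 and hhf3 (chrII:3529566-3529665, plus strand): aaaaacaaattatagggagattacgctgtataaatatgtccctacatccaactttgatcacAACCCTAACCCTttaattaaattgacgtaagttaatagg
hta2 (chrI:4053319-4053418, minus strand): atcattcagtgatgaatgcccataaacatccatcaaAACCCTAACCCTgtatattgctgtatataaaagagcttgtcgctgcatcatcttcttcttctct

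The 10 genes lie at 6 places, in 4 divergent pairs and as 2 single genes. The pair hta1 and htb1 (SPCC622.08C and SPCC622.09) is on chromosome III, from 1411144 to 1413677. The pair hhf1 and hht1 (SPAC1834.03C and SPAC1834.04) is on chromosome I, from 4698773 to 4700560. Chromosome II holds hhf2 and hht2 (SPBC8D2.03C and SPBC8D2.04, 1364189 to 1365818), hht3 and hhf3 (SPBC1105.11C and SPBC1105.12, 3528800 to 3530388) and the single gene pht1 (SPBC11B10.10C, 1502203 to 1503444). The second single gene, hta2 (SPAC19G12.06C), is on chromosome I, from 4052446 to 4053318. Annotated lengths ran from 622 to 1319 bp.

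A summit lay near 4 of the 10 genes (40%, exact Clopper-Pearson 95% interval 12.2 to 73.8), and the same 4 were overlapped by a peak interval. Among peaks with a fold at or above the list median, with −log10 q of at least 10, or with a fold above 1.5 over a background held at the chromosome mean, 2 of the 10 (20%) were left each time, hta1 and htb1, against 7.22%, 12% and 7.88% of all protein-coding genes. With all peaks, 15.1% of the 5113 protein-coding genes were near a summit, and 12.2% were overlapped by a peak. Among the 1257 genes of the same length range it was 12.6%. The interval for the histone genes is wide and holds 12.6% and 15.1%, so this count alone does not set them apart from other genes. Intervals cover counting error only.

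By kind of histone, a summit was near 1 of 2 H2A genes, the single H2B gene, 1 of 3 H4 genes, the H2A.Z gene and 0 of 3 H3 genes. By arrangement it was near both genes of the hta1 and htb1 pair, 1 gene of the hhf1 and hht1 pair, neither gene of the other two pairs, and 1 of the 2 single genes. Summits past the 3′ end were thus found on both sides of 1 pair and on 1 side of another.

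**Figure D1:**
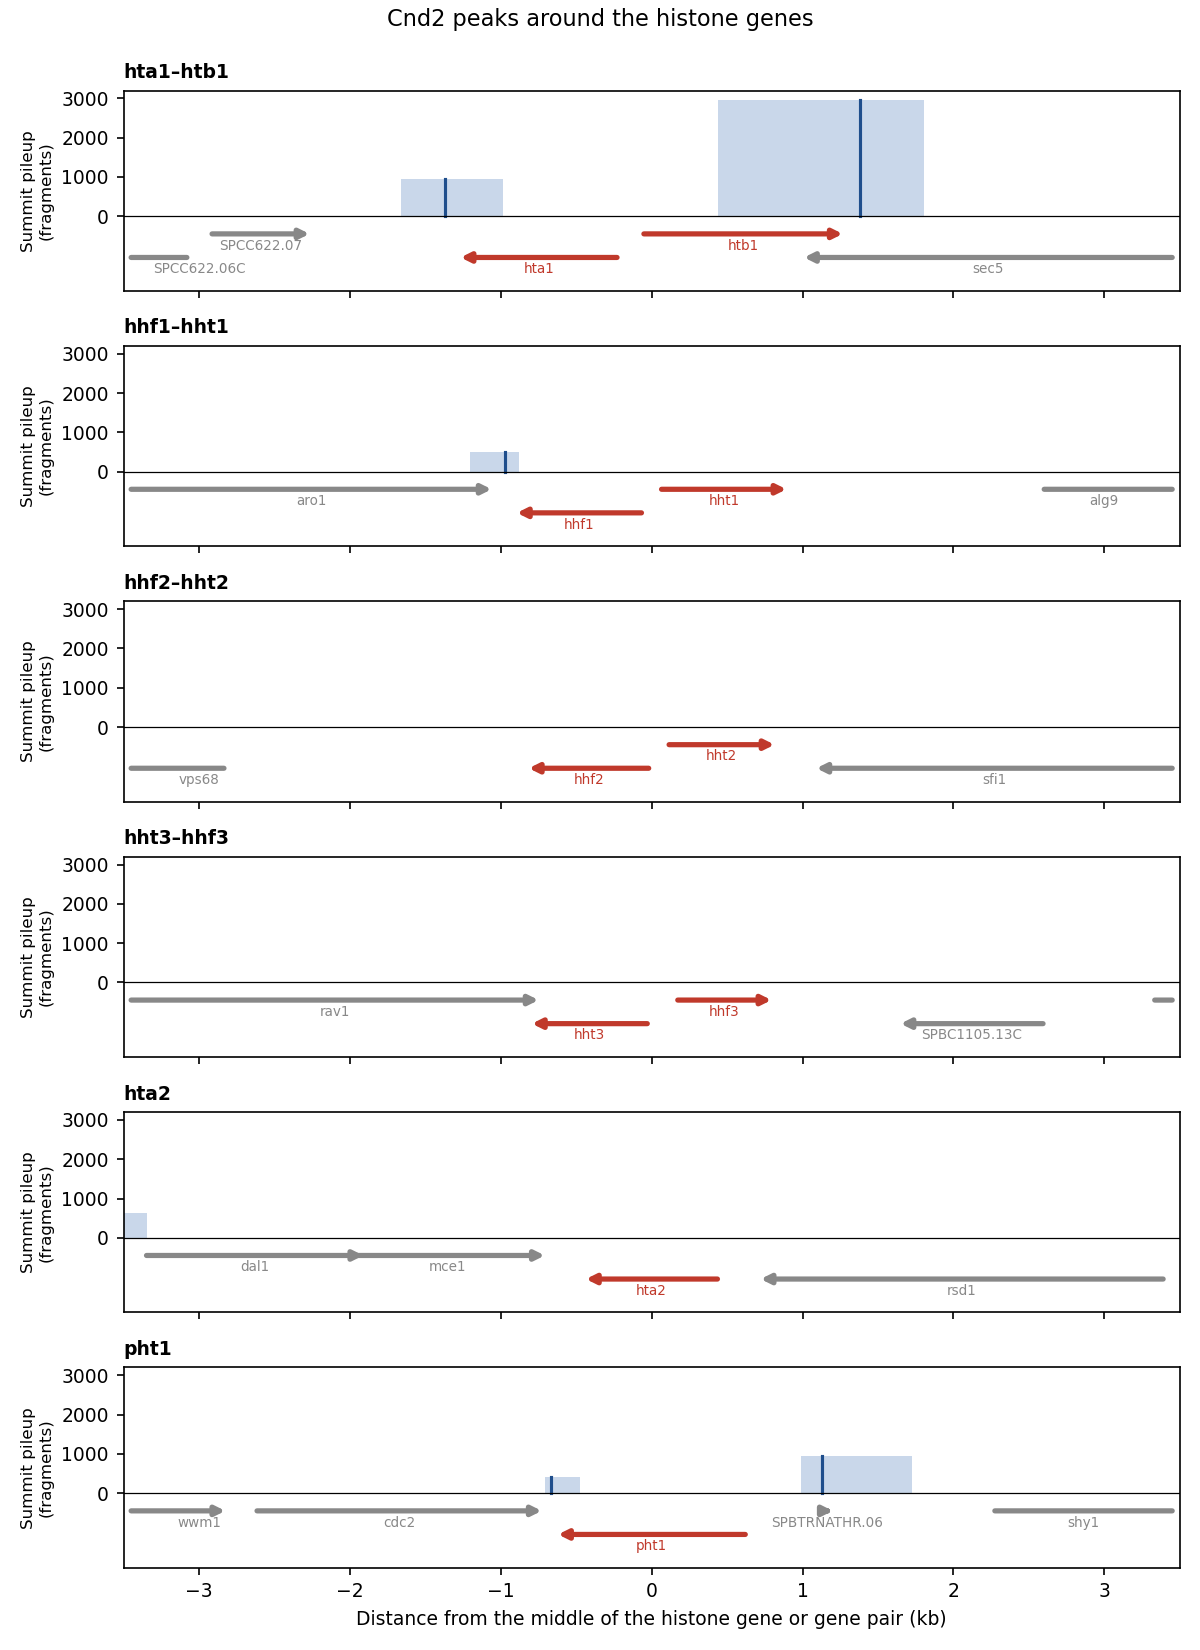
Cnd2 peaks at the 6 histone loci. The x axis is the distance in kb from the middle of the gene or pair, shaded boxes are peak intervals drawn to the pileup at their summit (fragments), and dark lines are summits; arrows are protein-coding genes and 1 tRNA gene (histone genes red, others grey, lines without a head run on past the edge), and the 5S rRNA gene and non-coding RNAs are not drawn. The summits at hta1, htb1, hhf1 and pht1 stand past the heads of the red arrows, and their peaks reach back over these genes. No peak lies between the tails of a pair.

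The htb1 peak was the tallest, the widest and the most enriched of the 4. It ran from 1412848 to 1414217 on chromosome III, 1370 bp, with its summit at 1413789. The pileup there was 2950 fragments (exact Poisson 95% interval 2844.5 to 3058.4) over a background of 547.1 scaled fragments, which made it rank 28 of 664 by fold, 30 by pileup and 89 by width. The summit lay 112 bp past the annotated 3′ end of htb1 and 925 bp past its stop codon.

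This place is shared with sec5, which encodes a subunit of the exocyst, the complex that tethers secretory vesicles. sec5 faces htb1 and overlaps its 3′ end by 258 bp. The summit was inside sec5, 369 bp before its 3′ end and 152 bp inside its coding part. Of the 1370 bp of the peak, 830 were in htb1, but only 17 of these were coding, and the 540 others lay past the gene.

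The hta1 peak, on the far side of the same pair, was lower. It ran from 1410746 to 1411425, 680 bp, with its summit at 1411039, where the pileup was 955 (895.4 to 1017.5) over a background of 457.4. Its 2.09-fold ranked 252 of 664. The summit lay 105 bp past the 3′ end of hta1 and 896 bp past the 3′ end of the facing gene SPCC622.07. It was nearer, at 87 bp, to the 5′ end of the non-coding RNA SPNCRNA.7357. It was inside SPNCRNA.1194, a non-coding RNA antisense to hta1 that is annotated as a possible alternative untranslated region. This RNA has its 3′ end 1325 bp from the summit, so it runs across hta1 and the shared promoter. The peak held 282 bp of hta1, none of it coding.

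Within this pair the htb1 peak was 3.09 times as high as the hta1 peak, 2.01 times as wide and 2.58 times as enriched. Their counting intervals for pileup did not overlap, but these hold no spread between libraries. The summits were 2750 bp apart, and 1422 bp between the peaks, which hold the shared promoter and all but 17 bp of both coding parts, were in no peak.

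The hhf1 peak was small. It ran from 4698460 to 4698789 on chromosome I, 330 bp, with its summit at 4698692, where the pileup was 498 (455.2 to 543.7) over a background of 364.1. Its 1.37-fold ranked 496 of 664. The summit lay 81 bp past the 3′ end of hhf1 and 86 bp past that of aro1, which faces it and encodes a multifunctional enzyme of aromatic amino acid synthesis. It was thus about in the middle of the 166 bp gap, and only 17 bp of the peak were in hhf1.

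The pht1 peak was the smallest of the 4. It ran from 1502115 to 1502350 on chromosome II, 236 bp, with its summit at 1502155, where the pileup was 405 (366.5 to 446.4) over a background of 312.5. Its 1.30-fold ranked 555 of 664 by fold and 659 by pileup. The summit lay in the 107 bp gap between pht1 and cdc2, the gene of the cyclin-dependent kinase that drives entry into mitosis, 48 bp past the 3′ end of pht1 and 60 bp past that of cdc2. It was also 140 bp before the 5′ end of the non-coding RNA SPNCRNA.5213 and 389 bp before that of SPNCRNA.5214. Of the 236 bp of the peak, 148 were in pht1, none of them coding.

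The pileup at pht1 was below the chromosome mean of 429.1 fragments, as at 12 of the 664 peaks (1.81%). Its counting interval (366.5 to 446.4) holds that mean. The mean was calculated, as all kept ChIP fragments times 208 bp over the chromosomes' length, so fragments in tall peaks count in it. It was above the median background of peaks on chromosomes I (365.5) and II (378.1). The local background at pht1 was lower still, at 312.5. With the background held at the chromosome mean or above, the fold at pht1 was 0.944 and that at hhf1 1.16. The backgrounds at hta1 and htb1 were already above that mean, so this setting could not change their folds.

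A second peak near pht1 lay just outside the 500 bp limit. Its summit (II, 1503953; 2.87-fold, pileup 942) was 509 bp before the 5′ end of pht1, on the threonine tRNA gene SPBTRNATHR.06, and 379 bp from the 5S rRNA gene SPRRNA.33. It did not overlap pht1. The next member outside the limit was hht1, 1040 bp from the hhf1 summit, and inside it the farthest was htb1 at 112 bp, so that no histone gene had its nearest summit between 112 and 1040 bp.

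**Figure D2:**
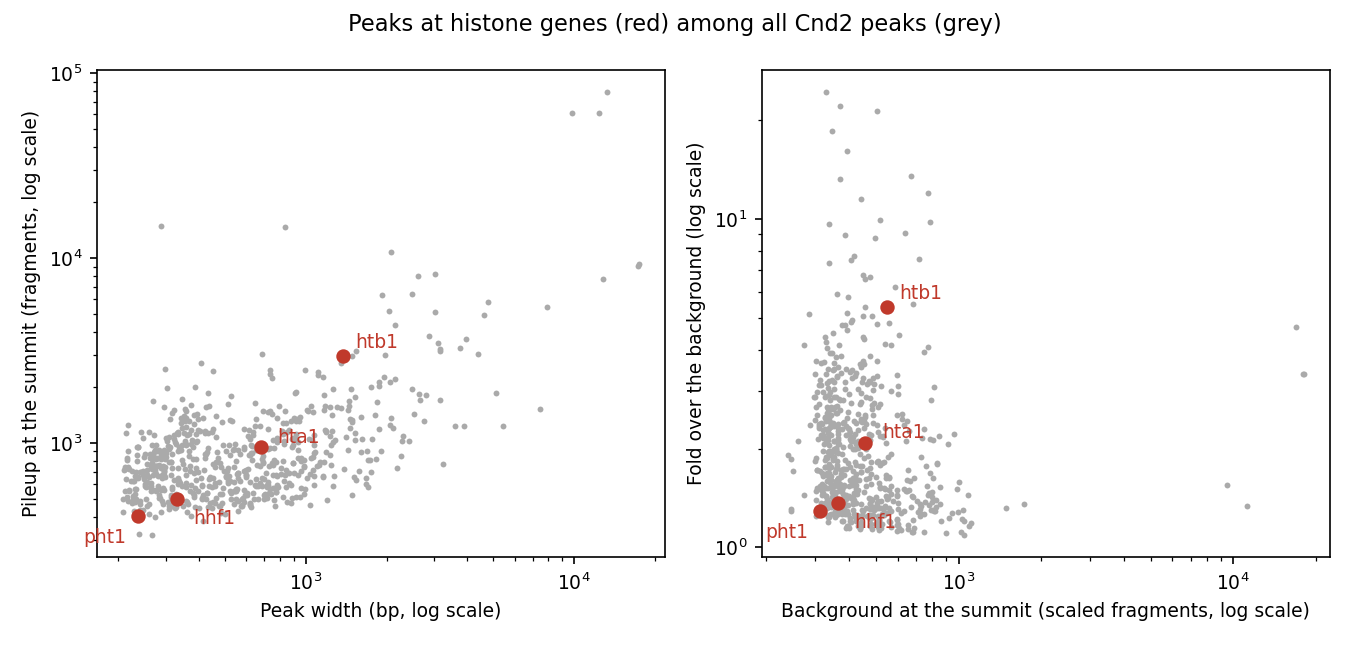
The 4 peaks at histone genes (red) among the 664 peaks on chromosomes I to III (grey), all axes logarithmic. Left, peak width (bp) against pileup at the summit (fragments); right, background at the summit (scaled fragments) against fold. htb1 at 2950 fragments is near the upper edge for its width, and pht1 at 405 is at the lower edge of the cloud.

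The 4 peaks went both ways from the rest of the list. Their median pileup was 726.5, against 786 for all 664 peaks, their median fold 1.73 against 1.72, and their median width 505 bp against 523 bp. These medians lie between high and low members. The quartiles of all peaks were 586 and 1129.75 for pileup, so that hta1 was within them, hhf1 and pht1 below and htb1 above. Against the 189 peaks past the 3′ end of a gene with a facing neighbour and away from tRNA and 5S rRNA genes, the median fold was 1.73 against 1.61 and the median width 505 bp against 636 bp. Peaks on chromosome III had a higher background (median 560.0) than those on I (365.5) and II (378.1), and the values for hta1 and htb1 (457.4 and 547.1) were under that median. Its part in the height of these peaks was not tested.

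All 4 summits lay past a 3′ end, at 48 bp (pht1), 81 bp (hhf1), 105 bp (hta1) and 112 bp (htb1). This place was noted after the summits were seen. A summit 1 to 500 bp past the 3′ end was thus found at 4 of 10 histone genes (40%, exact interval 12.2 to 73.8), against 7.57% of all protein-coding genes. Among genes near any summit, the nearest one was past the 3′ end at 46.3% (358 of 774), inside the gene at 40.6% and before the 5′ end at 13.2%. Over the 387 genes with a summit 1 to 500 bp past the 3′ end the median distance was 175 bp (quartiles 111 and 272), and 20.2% fell between 48 and 112 bp.

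**Figure D3:**
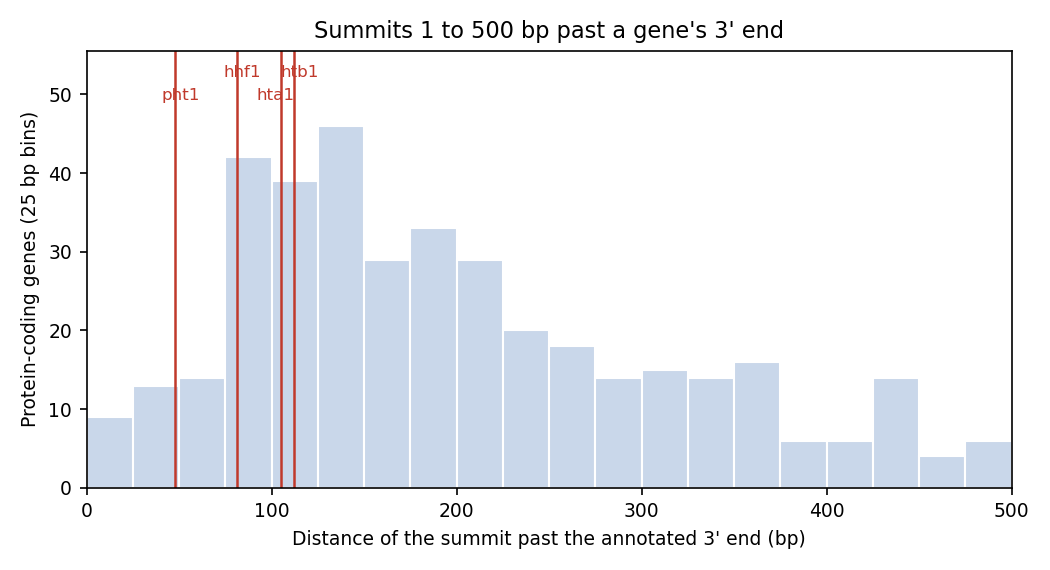
Distance of the summit past the annotated 3′ end (bp) for the 387 protein-coding genes with a summit 1 to 500 bp past it, in 25 bp bins. Red lines mark pht1, hhf1, hta1 and htb1, at 48 to 112 bp, on the near side of the median of 175 bp.

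Each of these 4 genes had a facing (convergent) protein-coding gene downstream, but so did 4 without a peak. Of the 8 histone genes with such a neighbour, 4 had a summit past the 3′ end (50%, exact interval 15.7 to 84.3), against 9.01% of the 2786 such genes in the annotation. The place past the 3′ end was noted after these same summits were seen, so this interval is a description and not a test. Of the 4, only hta1 and htb1 stayed in the stricter sets of peaks. The gap to the facing gene was 1000 bp at hta1, 166 bp at hhf1 and 107 bp at pht1, with an overlap at htb1. It was 271 bp at hta2, 276 bp at hht2 and 854 bp at hhf3, with an overlap of 46 bp at hht3. The gaps of the 2 sets overlap. The 2 genes with a tandem neighbour, hht1 (alg9, 1707 bp away) and hhf2 (vps68, 2019 bp away), had no summit there.

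The annotated 3′ untranslated regions were 312 to 813 bp long at the 4 genes with a peak and 250 to 406 bp at the 6 without, against a median of 243 bp for all protein-coding genes. These ranges overlap. In the 200 bp past the 3′ end the GC content was 30.0% at hta1, 42.5% at htb1, 34.0% at hhf1 and 27.0% at pht1, and it ran from 27.0% at hht1 to 37.0% at hhf3 in the others. The median over all protein-coding genes was 31.0% (quartiles 28.0 and 34.0), so that htb1, whose flank is coding sequence of sec5, was the GC-rich one.

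The other 6 genes had their nearest summit 1.04 to 26.25 kb away. For hht1 it was the summit at hhf1, across the shared promoter and the whole of hhf1. For hta2 it was 3077 bp past its 3′ end, 16 bp from cda1 (1.74-fold). The hht3 and hhf3 pair was 12090 and 13057 bp from the 18.5-fold summit (II, 3516710) in the non-coding RNA SPNCRNA.6162. The hht2 and hhf2 pair was the most isolated, 25416 and 26250 bp from a 1.81-fold summit in gmh4. That no peak was called is not a measure of how much Cnd2 was there, since the list holds called peaks only, with a lowest fold of 1.09 and a lowest pileup of 317.

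**Figure D4:**
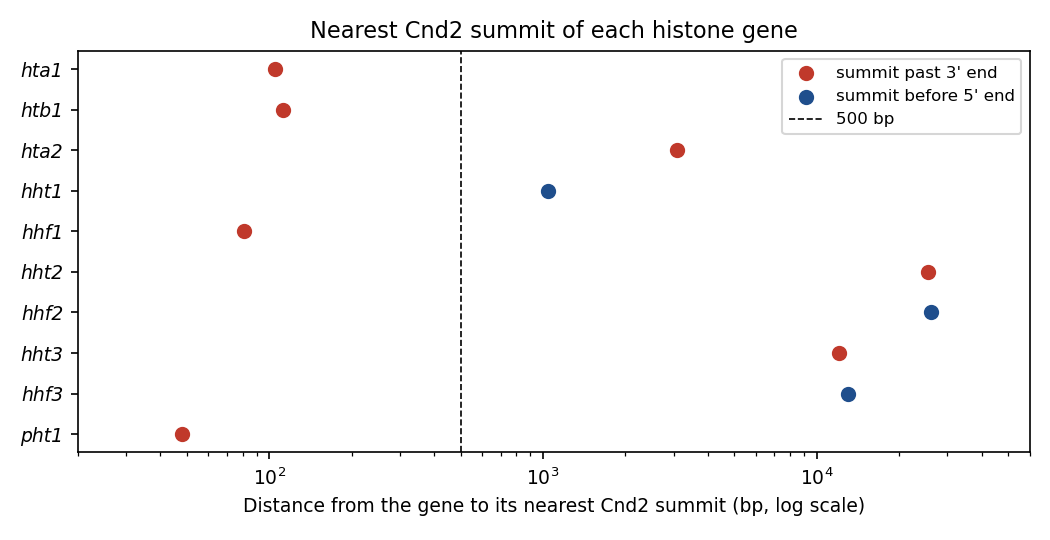
Distance in bp (logarithmic axis) from each histone gene to its nearest Cnd2 summit, red where that summit is past the 3′ end and blue where it is before the 5′ end, with the 500 bp limit dashed. hta1, htb1, hhf1 and pht1 stand at 48 to 112 bp, all past the 3′ end, and the other genes at 1040 bp or more.

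The shared promoters held no peak. The gaps between the paired genes were 132 bp (hhf1 and hht1), 134 bp (hhf2 and hht2), 177 bp (hta1 and htb1) and 201 bp (hht3 and hhf3) long. The nearest summits were 908, 26116, 1143 and 12856 bp away in that order. None of the 4 gaps held a summit (0%, exact interval 0 to 60.2). That matches the background, since 5.77% of the 1265 divergent gaps held one, and among those of 100 to 250 bp it was 0 of 177 (0%, exact interval 0 to 2.06).

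The doubled box AACCCTAACCCT was found, on either strand, in the promoter window (250 bp before to 50 bp after the gene start) of 9 of the 10 histone genes. It was not in that of pht1. Of all protein-coding promoters 0.391% held it (20 of 5113), and 9.70% held AACCCT, which is contained in it. All 4 histone gaps held the doubled box, against 0.870% of all divergent gaps. The box lay 47 to 128 bases from the annotated gene starts, farthest at hhf3, whose annotated start is its start codon. The nearest summit was 960 bp from the box at hhf1 and hht1, 1261 bp at hta1 and htb1, 4002 bp at hta2, 12917 bp at hht3 and hhf3, and 26163 bp at hht2 and hhf2. Of the 9 genes with the box, 3 were near a summit, where 15.1% of all protein-coding genes were. Pairs with a peak and pairs without one both held the box. The search was for this exact sequence, so it could not show differences between the boxes.

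Fragments from near-identical copies can be split between them or lost. The coding parts of the 3 H3 genes were 88.6 to 92.7% identical and those of the 3 H4 genes 91.3 to 93.3%, and hta1 and hta2 were 86.5% identical. The longest run shared by 2 copies was 54 bp, between hhf2 and hhf3. In the 200 bp past the 3′ end none of the 50-base words of the 10 genes occurred elsewhere on the 3 chromosomes, and in the coding parts only 5 of 263 did, in hhf2 and in hhf3. The read length and the aligner's handling of repeats were not given in the sources used here, so the part of repeated sequence in the peaks called or missing was not tested.

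Of 31 listed genes that regulate, chaperone or exchange histones, a peak overlapped 4 (12.9%), against 12.2% of all protein-coding genes. A summit was near 6 of the 31 (19.4%, exact interval 7.45 to 37.5). That interval holds the 15.1% of all protein-coding genes. Among the 6 histone gene regulators this was ams2, with a summit inside the gene at 1.14-fold, rank 655 of 664. Among the 10 chaperone and assembly genes they were nap1, a nucleosome assembly protein, and spt16, a subunit of the chaperone FACT. The nap1 summit (3.10-fold) lay 310 bp past its 3′ end, within 100 bp of the serine tRNA gene SPCTRNASER.07, and the spt16 summit (1.25-fold) lay 171 bp inside its 3′ end.

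Among the 10 genes of H2A.Z exchange, vps71 and arp6, both subunits of the SWR1 complex that inserts H2A.Z, were near a summit. That of vps71 was 326 bp before its 5′ end (1.70-fold) and that of arp6 480 bp inside its 3′ end (1.31-fold). Among the 5 genes of the centromeric H3 variant CENP-A and its loading, the one was mis16, with a summit 220 bp before its 5′ end at 1.99-fold. The CENP-A gene itself, cnp1, was 21794 bp from its nearest summit. Of these 6, only nap1 had its summit past the 3′ end. Within 100 bp of the summit lay nop2 at spt16, and non-coding RNAs at ams2 (SPNCRNA.1252), mis16 (SPNCRNA.6918) and vps71 (SPNCRNA.5465).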

How the data were processed

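Anti-HA ChIP and input libraries from mitotic Cnd2-HA cells were compared by the authors. BWA 0.7.12, MACS2 2.1.0 and build ASM294v2 are named in the submitters' processing notes. Per the file headers, MACS 2.1.0.20150731 called peaks on paired-end fragments against the input at a q-value cutoff of 0.05, keeping 1 fragment per position. Duplicate removal took 34.7% of ChIP and 10.4% of input fragments, which can lower tall peaks such as that at htb1.

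Per the file headers, the deposited pileup is a signal: how many fragments cover the summit, with the larger library scaled down. The deposited fold is a ratio of pileup to local background, each with a pseudocount of 1. The authors give each p-value and q-value as −log10. Widths are in bp. These values were used only within this list. The background was recovered from pileup and fold. The header's effective genome size of 1.87e+09 sets a lowest background of 2.88 fragments, whereas the chromosomes' 12.6 Mb give 429.1.

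Genes came from RefSeq's ASM294v3, a later release. With its gene positions unshifted 117 of the 171 genes for tRNAs had a summit within 100 bp, and 1 to 9 had one after shifts of 500 to 5000 bp. This check cannot see a small or local offset between the releases. The distances of 48 to 112 bp past the 3′ ends, and the bases in capitals there, rest on there being none. No coordinates were converted. The 4 peaks on the sequence named MTR were left out. All 31 listed pathway genes were matched, 1 through a synonym (asf1, listed as cia1).

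Shares have exact Clopper-Pearson and pileups exact Poisson 95% intervals. Members and lists were chosen with earlier results of these data known. The genes named are the members, those at or beside their summits, and the listed pathway genes near a summit. cnp1 and the facing genes of members without a peak were added later. Placing summits against genes was tested on simulated data, where 300 of 300 planted summits were placed correctly. Software was Biopython 1.88, matplotlib 3.10.9, scipy 1.17.1, pandas 2.3.3, numpy 2.4.6 and Python 3.11.15. An untagged control, reads and coverage tracks were not analysed here.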

Additional observations from a re-analysis of the deposited data

How the results depend on the processing

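No paired analysis was possible because there was 1 ChIP library and 1 input. Of 51 values under the alternatives 38 stayed within 1.5 times the reported one without a change of direction. Another 12 moved further, and 1, the fold at pht1, turned from above 1 to below it. The 4 histone genes near a summit were the same 4 at 250 and 1000 bp and by overlap, and 3 of them (without htb1) when distances were taken from the coding part. With the summit required inside the gene the counts became 0 histone, 3 pathway and 314 protein-coding genes (6.14%). Stricter sets of peaks left 2 histone genes, hta1 and htb1 (20%), with fold at or above the median (369 protein-coding genes, 7.22%), with −log10 q of at least 10 (615, 12%), and with a fold above 1.5 over a background held at the genome mean (403, 7.88%). Held so, the fold at pht1 turned from 1.30 to 0.944. Measured from the stop codon, the summits lay 485 bp (hta1), 925 bp (htb1), 393 bp (hhf1) and 487 bp (pht1) away. No histone peak was left for a median of pileup, fold or width with summits inside the gene. Without replicates, the list's depth and the caller's threshold limit what a missing peak shows.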

Other observations

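Outside the histone genes, 11 protein-coding genes had the doubled AACCCT box in their promoter window, and 6 of them were near a Cnd2 summit. They were picked out after the histone promoters had been searched, and no test was made. The summits lay inside 4 of them. These were the Hsp90 chaperone gene hsp90 (1.5-fold, 2084 bp from the gene start), the Hsp70 gene ssa2 (2.21-fold, 1984 bp), tbp1, which encodes the TATA-binding protein (1.55-fold, 844 bp), and the bromodomain gene bdf2 (1.23-fold, 959 bp). The summit at tif51, the gene of the translation factor eIF5A, lay 127 bp past its 3′ end (3.41-fold), and that at SPAC27E2.11C lay 54 bp before its 5′ end (1.32-fold). The other 5, which were ssa1, eft201, ppc89, erg1 and spi1, had none within 500 bp. By the same window and rule, 15% of the protein-coding genes without the doubled box were near a summit.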
